A study of Mus musculus with 9 samples.

Results

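The genes examined here were 7 general pluripotency genes, *Pou5f1*, *Sox2*, *Sall4*, *Utf1*, *Fbxo15*, *Tcl1* and *Nr0b1*. They were chosen by name, under the heading of core genes shared by the naive and the primed pluripotent state, and made up 7 of the 55471 genes of the count table. Each symbol matched 1 Ensembl ID, and all 7 genes passed the filter on low counts in every comparison.

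RNA-seq read counts were compared in mouse embryoid bodies (EBs), clusters of cells that grow out of embryonic stem cells (ESCs) in suspension and start to differentiate. The libraries comprised 3 of wild-type EBs (WT), 3 of *Tnfaip2*-/- EBs (KO), and 3 of *Tnfaip2*-/- EBs given palmitic acid and palmitoyl-L-carnitine at 8 μM each (KO_PAPC). All EBs descended from the E-14 ESC line, were formed in hanging drops over 3 days, and were harvested after a further 3 days of induced differentiation in fibroblast (MEF) medium. The study's methods describe drops in ESC medium, which contains leukemia inhibitory factor, for EBs without fatty acids, but MEF medium with the fatty acids from EB formation onwards for treated EBs, while the labels describe a single protocol for forming EBs. As the methods have it, the fatty acids and the medium of EB formation cannot be told apart in the KO_PAPC libraries. The KO cells were 1 CRISPR-Cas9 clone with a premature stop codon in the second exon of *Tnfaip2*, so the KO and KO_PAPC libraries share that clone, and a WT group given the fatty acids was not analysed here.

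Pluripotent cells are held in their state by a small network of transcription factors, in which OCT4 (the product of *Pou5f1*) and SOX2 bind DNA side by side and sustain their own expression and that of many other genes. *Pou5f1*, *Sox2*, *Sall4* and *Utf1* stay on when naive ESCs move to the epiblast-like primed state, and are switched off later, except that *Sox2* stays on in the neural lineage. *Fbxo15*, *Tcl1* and *Nr0b1* are known OCT4-dependent genes of mouse ESCs. They are expressed at higher levels in naive than in primed cells, so the heading of shared genes holds less well for them.

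Depth was even, with 27362913 to 28914312 counts per library, and mitochondrial transcripts took 1.85 to 1.87% of counts in WT, 1.96 to 1.98% in KO and 1.26 to 1.34% in KO_PAPC libraries. *Tnfaip2* itself had 5 to 25 counts in every library, too few to check the knockout labels. Levels are given as CPM, counts per 1000000 counts of the library. Differences are log2 fold changes with their standard error (SE) from edgeR, in which TMM size factors set the median gene close to 0, and genes with an adjusted p under 0.05 were called. With library totals in place of TMM, the median of all genes moved by -0.17 (log2) in both comparisons that involve KO_PAPC, so that small KO_PAPC differences depend on this choice.

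The genes fell into unlike patterns over the 3 groups. *Tcl1*, *Fbxo15*, *Nr0b1* and *Sox2* were higher in KO than in WT EBs, by 2.67-fold, 2.24-fold, 1.67-fold and 1.47-fold, and all were lower again in KO_PAPC than in KO EBs. *Pou5f1* and *Sall4* differed by at most 1.04-fold between KO and WT, *Utf1* was 1.21-fold lower in KO, and these 3 genes were 1.36-fold to 1.49-fold higher in KO_PAPC than in KO EBs. This grouping was made after the values were seen. EBs are mixed tissue, and fewer cells that express a gene cannot be told apart from less RNA of it per cell.

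**Figure D1:**
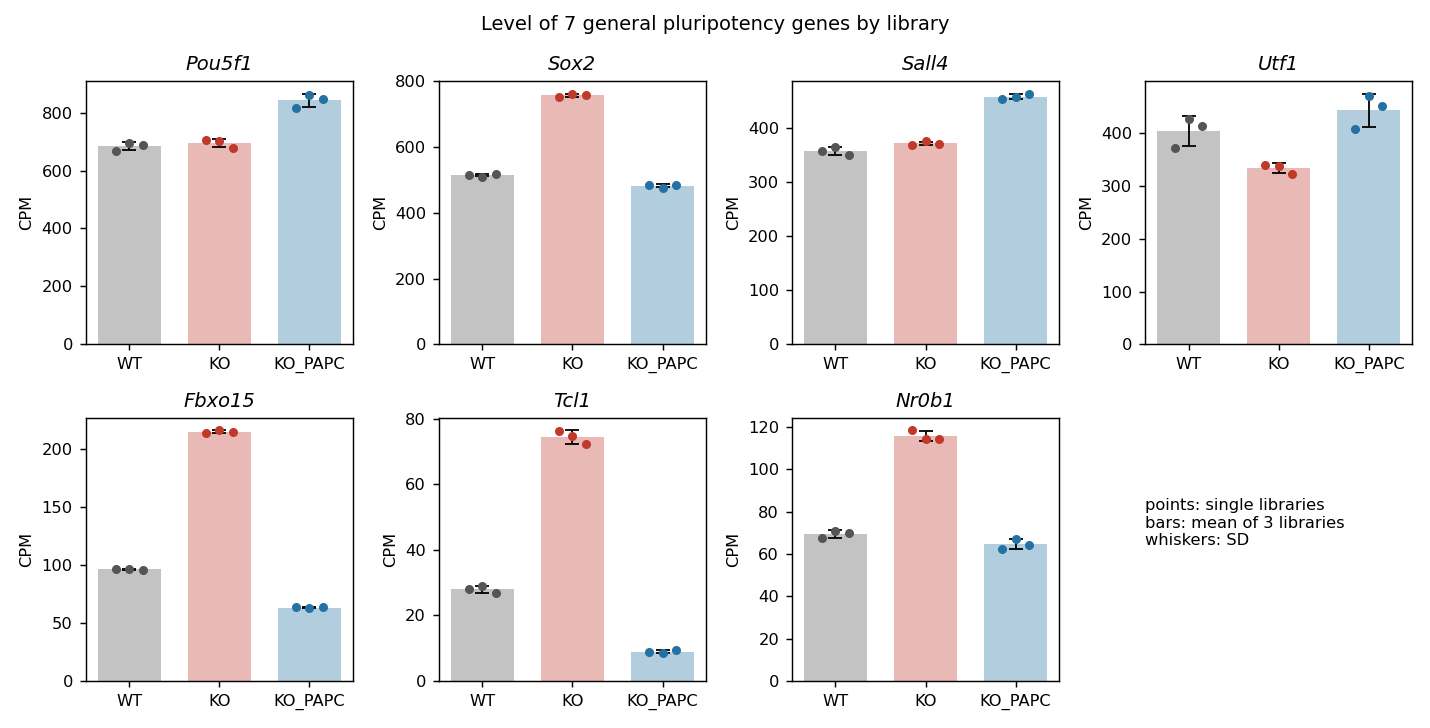
CPM of the 7 genes in each of the 9 libraries, 1 panel per gene with its own axis from 0, where points are libraries, bars are the mean of 3 libraries per group and whiskers are the SD. *Tcl1*, *Fbxo15*, *Nr0b1* and *Sox2* are highest in the KO libraries, whereas the means of *Pou5f1*, *Sall4* and *Utf1* are highest in KO_PAPC.

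The proximal promoters are shown for *Sox2* and *Nr0b1*, the 2 genes with a KO peak whose profiles were closest, for *Tcl1*, which varied most, and for *Pou5f1*, which was nearly level between WT and KO. RefSeq windows (GRCm38.p6) were matched for 5 of the 7 genes. Each line is the gene's strand, 5′ to 3′, from 250 bases before the RefSeq start up to that start, less any bases that GENCODE places inside the gene (none for *Sox2*, whose GENCODE start lies downstream of its RefSeq start). Capitals mark matches on either strand to the searched letters, which were the octamer ATGCAAAT bound by POU factors, the Sox motifs ACAATG and ACAAAG, a motif of the orphan receptors ESRRB and NR5A2 spelled AAGGTCA, and the GC box GGGCGG.
Sox2, chr3:34649745-34649994, plus strand: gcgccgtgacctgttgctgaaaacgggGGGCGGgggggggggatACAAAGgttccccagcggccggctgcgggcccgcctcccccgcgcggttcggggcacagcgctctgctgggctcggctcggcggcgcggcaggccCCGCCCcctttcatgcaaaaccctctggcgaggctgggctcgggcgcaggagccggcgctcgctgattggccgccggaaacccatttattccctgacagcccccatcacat
Nr0b1, chrX:86191525-86191763, plus strand: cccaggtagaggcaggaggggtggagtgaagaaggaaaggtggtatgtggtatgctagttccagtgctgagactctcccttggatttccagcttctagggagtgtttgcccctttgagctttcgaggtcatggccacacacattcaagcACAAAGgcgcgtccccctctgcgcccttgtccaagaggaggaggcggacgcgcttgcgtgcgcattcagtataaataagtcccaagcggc
Tcl1, chr12:105222794-105222987, minus strand: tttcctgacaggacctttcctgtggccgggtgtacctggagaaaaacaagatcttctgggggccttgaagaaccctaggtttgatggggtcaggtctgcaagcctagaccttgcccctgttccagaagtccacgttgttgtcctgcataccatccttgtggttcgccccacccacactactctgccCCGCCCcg
Pou5f1, chr17:35505782-35506017, plus strand: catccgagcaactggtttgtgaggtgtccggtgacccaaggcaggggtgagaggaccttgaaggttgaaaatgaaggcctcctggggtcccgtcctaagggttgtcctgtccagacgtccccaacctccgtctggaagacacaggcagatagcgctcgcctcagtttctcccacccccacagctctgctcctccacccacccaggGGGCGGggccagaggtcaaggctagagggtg

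ACAAAG was found at position -206 from the RefSeq start of *Sox2* and at -101 of *Nr0b1*, and 16.5% of all 32851 promoter windows hold it. The GC box, which 32.7% of windows hold, was found in *Sox2* from -223, in *Utf1* from -138, in *Tcl1* from -64 and in *Pou5f1* at -45. The octamer (1.6% of windows) and AAGGTCA (4.08%) had no match in the windows of the 5 genes. ACAATG (10.7% of windows) was found only in a further *Pou5f1* window that lies inside the gene. These matches are letters in a sequence, and no binding was measured.

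*Pou5f1* (ENSMUSG00000024406, chromosome 17, 35506018 to 35510772) encodes OCT4, the POU-domain factor without which the inner cell mass does not become pluripotent. WT libraries held 668, 696.5 and 687 CPM, KO libraries 705, 702.5 and 679 CPM, and KO_PAPC libraries 817, 863 and 849 CPM. The WT and KO values overlapped, and every KO_PAPC library lay above them. KO and WT differed by 0.025 ± 0.0216 (log2, SE, edgeR adjusted p = 0.304), a smaller change than that of all but 3.72% of the genes tested. KO_PAPC was higher than KO by 0.44 ± 0.0245 (log2, edgeR adjusted p = 1.33e-18) and higher than WT by 0.47 ± 0.0265 (edgeR adjusted p = 5.82e-14), or by 0.28 and 0.30 under library totals. Of the 51-base words of its transcripts, 9.93% also occur in *Gm19553*, which overlaps it on the opposite strand, or *Gm5712*, and the libraries were unstranded.

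The median log2 fold change of the genes on chromosome 17 moved with the groups. For the 852 tested genes of that chromosome it was -0.24 between KO and WT, against 0.0056 elsewhere, and 0.32 between KO_PAPC and KO. *Pou5f1* lay 0.26 and 0.12 (log2) above these chromosome medians. The chromosome 17 median was 0.081 in KO_PAPC against WT, with *Pou5f1* 0.385 above it. The part of the chromosome in the *Pou5f1* values was not tested.

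*Sox2* (ENSMUSG00000074637, chromosome 3, 34650405 to 34652461) encodes the HMG-box partner of OCT4, and is a single-exon gene within the body of the noncoding gene *Sox2ot*. WT libraries held 515, 510.4 and 517 CPM, KO libraries 752, 763 and 758 CPM, and KO_PAPC libraries 486, 477 and 485.5 CPM. The KO libraries stood above all others, and the KO_PAPC libraries lay a little below WT without overlap. *Sox2* was higher in KO than in WT by 0.56 ± 0.0201 (log2, SE, edgeR adjusted p = 9.9e-23) and lower in KO_PAPC than in KO (log2 fold change -0.48 ± 0.0233, edgeR adjusted p = 1.77e-20). Between KO_PAPC and WT the edgeR log2 fold change was 0.073 ± 0.0253 (adjusted p = 0.013), but -0.092 under library totals (edgeR adjusted p = 0.00204), so its direction depends on the scaling. That call was also lost without WT replicate 2 (edgeR adjusted p = 0.0556) and without KO_PAPC replicate 3 (edgeR adjusted p = 0.061).

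*Sox2ot*, whose exons do not overlap *Sox2*, was tested as well because it surrounds the gene. Its edgeR log2 fold changes were 0.36 (adjusted p = 0.00328) in KO against WT and -1.10 (adjusted p = 3.13e-10) in KO_PAPC against KO. In KO_PAPC against WT *Sox2ot* was lower, with -0.74 (edgeR adjusted p = 2.57e-05). 

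The balance of the OCT4 and SOX2 transcripts was read as the ratio of *Sox2* to *Pou5f1*, both in CPM per kilobase (kb) of merged exons. The ratio was 0.843, 0.801 and 0.823 in the WT libraries, 1.17, 1.19 and 1.22 in the KO libraries and 0.65, 0.604 and 0.625 in the KO_PAPC libraries. The ratio was thus highest in the KO libraries and lowest in the KO_PAPC libraries, with no overlap between any groups, and does not depend on how libraries are scaled. Whether it lies above or below 1 depends on the merged exon lengths, whereas the order of the groups does not. WT averaged 0.822 ± 0.0209, KO 1.19 ± 0.0268 and KO_PAPC 0.626 ± 0.0228 (SD, n = 3).

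*Sall4* (ENSMUSG00000027547, chromosome 2, 168748332 to 168767943) encodes a zinc finger factor that binds the histone deacetylase complex NuRD and holds *Pou5f1* expression in ESCs. WT libraries held 358, 365 and 350.5 CPM, KO libraries 370, 376 and 372 CPM, and KO_PAPC libraries 455, 457.5 and 465 CPM. KO libraries lay just above WT, and KO_PAPC libraries well above both. The KO difference was 0.058 ± 0.0227 (log2, SE, edgeR adjusted p = 0.0214). It was not called in DESeq2 (adjusted p = 0.0575), without the filter (edgeR adjusted p = 0.139), without WT replicate 3 (edgeR adjusted p = 0.224, log2 fold change 0.037) or without KO replicate 2 (edgeR adjusted p = 0.0944). KO_PAPC was higher than KO by 0.47 ± 0.0243 (log2, edgeR adjusted p = 1.99e-19) and higher than WT by 0.52 ± 0.0268 (edgeR adjusted p = 7.59e-15), or by 0.30 and 0.36 under library totals. *Gm14261* overlaps 9.5% of the exonic bases of *Sall4* on the opposite strand. Reads that fell on several genes were not counted, so the *Sall4* level may be understated.

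*Utf1* (ENSMUSG00000047751, chromosome 7, 139943789 to 139945112) encodes a chromatin-bound protein of undifferentiated cells, and an enhancer downstream of the gene is a known joint target of OCT4 and SOX2. WT libraries held 372, 427.5 and 414 CPM, KO libraries 341, 338 and 324 CPM, and KO_PAPC libraries 409, 471 and 453 CPM. The KO libraries were the lowest, the WT and KO_PAPC values overlapped, and the spread within WT (404.5 ± 29) and KO_PAPC (444 ± 31.7 CPM, SD, n = 3) was wider than that of the other 6 genes in those groups. KO was lower than WT (log2 fold change -0.27 ± 0.0316 SE, edgeR adjusted p = 1.81e-09), and KO_PAPC was higher than KO by 0.58 ± 0.0326 (edgeR adjusted p = 2.77e-18). KO_PAPC was called higher than WT by 0.30 ± 0.0426 (log2, edgeR adjusted p = 9.19e-07), although the CPM ranges overlap, and by 0.13 under library totals (edgeR adjusted p = 0.00748). Each KO_PAPC library lay above the WT library of the same replicate number.

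*Fbxo15* (ENSMUSG00000034391, chromosome 18, 84934782 to 84981473) encodes an F-box protein, the substrate-binding part of a ubiquitin ligase, and is an OCT4 and SOX2 target that pluripotent cells can do without. WT libraries held 96.6, 96.8 and 95.5 CPM, KO libraries 214, 216 and 215 CPM, and KO_PAPC libraries 63.6, 62.6 and 63.6 CPM. Replicates were tight, and the groups stood in the order KO, WT, KO_PAPC with no overlap. *Fbxo15* was higher in KO than in WT by 1.16 ± 0.0266 (log2, SE, edgeR adjusted p = 2.33e-28), a larger change than that of 87.6% of genes. It was 3.03-fold lower in KO_PAPC than in KO (log2 fold change -1.60 ± 0.0304, edgeR adjusted p = 4.55e-33). Against WT the KO_PAPC libraries were lower as well, with -0.44 ± 0.0343 (log2, edgeR adjusted p = 2.46e-11).

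*Tcl1* (ENSMUSG00000041359, chromosome 12, 105216750 to 105222793) encodes a small protein that binds the kinase AKT and raises its activity. WT libraries held 27.9, 29.1 and 26.8 CPM, KO libraries 76.3, 74.7 and 72.3 CPM, and KO_PAPC libraries 8.68, 8.48 and 9.37 CPM. The groups again stood in the order KO, WT, KO_PAPC with no overlap. *Tcl1* was higher in KO than in WT by 1.42 ± 0.0406 (log2, SE, edgeR adjusted p = 1.64e-25), a larger change than that of 91.5% of genes. In KO_PAPC it was 7.5-fold lower than in KO (log2 fold change -2.91 ± 0.0526, edgeR adjusted p = 1.02e-33), a change larger than that of 94.2% of genes. It was 2.82-fold lower in KO_PAPC than in WT, with -1.49 ± 0.0639 (log2, edgeR adjusted p = 2.07e-16). The median of the genes on chromosome 12 had the opposite sign in each comparison, -0.18, 0.32 and 0.11 (log2).

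*Nr0b1* (ENSMUSG00000025056, chromosome X, 86191764 to 86195947) encodes DAX1, an orphan nuclear receptor without the usual DNA-binding domain, which binds OCT4 and the receptor NR5A2. WT libraries held 67.4, 70.7 and 70.0 CPM, KO libraries 118, 114 and 114 CPM, and KO_PAPC libraries 62.4, 67.1 and 64.0 CPM. KO libraries stood apart from the rest, and the highest KO_PAPC library was just under the lowest WT library. *Nr0b1* was higher in KO than in WT by 0.74 ± 0.0316 (log2, SE, edgeR adjusted p = 1.29e-20) and lower in KO_PAPC than in KO (log2 fold change -0.68 ± 0.0342, edgeR adjusted p = 8.08e-20). Between KO_PAPC and WT it was not called (0.060 ± 0.0382, edgeR adjusted p = 0.164), whereas under library totals the difference was -0.11 (edgeR adjusted p = 0.0172).

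Genes of the X chromosome moved with *Nr0b1* in 2 of the 3 comparisons. Their median log2 fold change was 0.30 in KO against WT (673 genes, with -0.019 on the other chromosomes) and -0.48 in KO_PAPC against KO. *Nr0b1* lay 0.44 above the X median in the first comparison and -0.20 from it in the second. In KO_PAPC against WT the X median was -0.15, with *Nr0b1* at 0.060 and 0.21 above it. The part of the chromosome in the *Nr0b1* values was not tested.

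**Figure D2:**
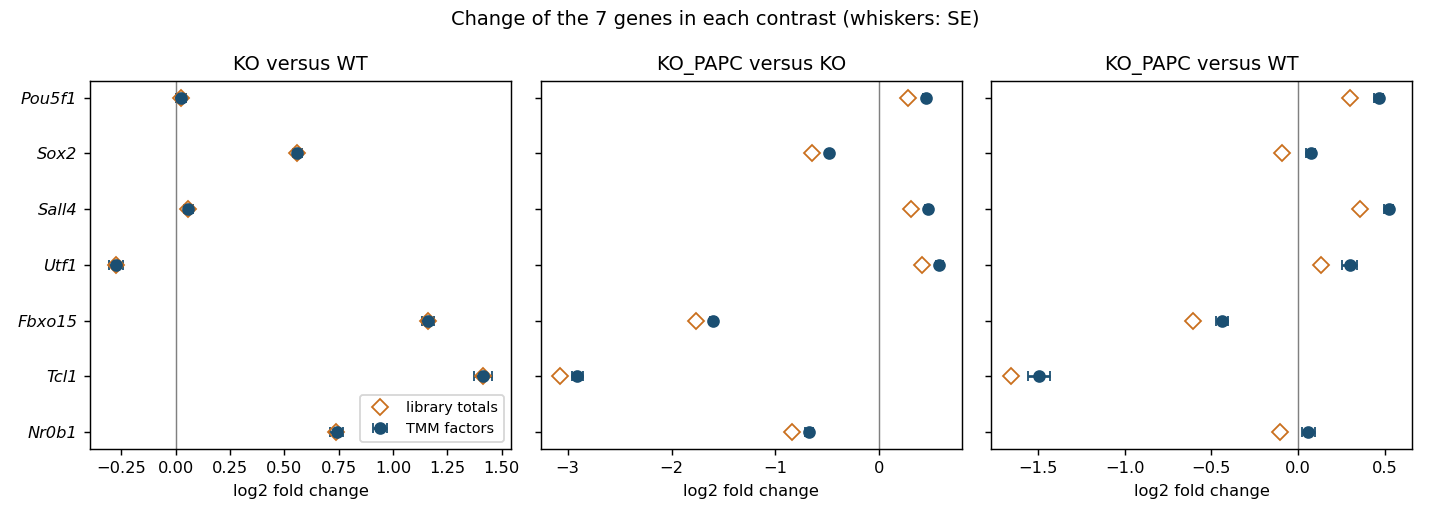
Log2 fold change of the 7 genes in KO against WT, KO_PAPC against KO and KO_PAPC against WT EBs, 1 panel each with its own axis, where filled circles are edgeR estimates with TMM factors, whiskers their SE, and open diamonds the estimates with library totals. The scalings coincide in KO against WT, and in KO_PAPC against WT they put *Sox2* (0.073 and -0.092) and *Nr0b1* (0.060 and -0.11) on opposite sides of 0.

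The question behind KO against WT was whether pluripotency genes stand higher in EBs without *Tnfaip2*. Of the 7 genes, 5 were called higher in KO, beside 36.8% of the 17355 genes tested, and *Utf1* alone was called lower, beside 37.1%. Among those 5, *Sall4* was higher by 0.058 (log2) only, and its call was lost in DESeq2 and without WT replicate 3 or KO replicate 2. *Fbxo15* and *Tcl1* were higher by at least 2-fold, as were 8.86% of genes tested. In 6 of the 7 genes the KO and WT values did not overlap, beside 75.2% of genes tested. The median log2 fold change of the 7 genes was 0.56, and that of all genes was -0.0059.

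KO_PAPC against KO asked whether the fatty acids shift the KO pattern. All 7 genes were called, *Pou5f1*, *Sall4* and *Utf1* higher (39.6% of 17167 genes tested were) and *Sox2*, *Fbxo15*, *Tcl1* and *Nr0b1* lower (42.2%). *Fbxo15* and *Tcl1* were lower by at least 2-fold, as were 18.4% of genes, and none of the 7 overlapped between the groups, as in 82.1% of genes. The median over the 7 genes was -0.48, beside -0.017 over all genes. Under library totals the same directions were called for each of the 7 genes, while of all calls 38% in place of 48.4% were higher.

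KO_PAPC against WT compared the treated KO with the unedited EBs. Called higher were *Pou5f1*, *Sall4*, *Utf1* and, by 0.073 only, *Sox2* (34.2% of 16655 genes tested were), and called lower were *Fbxo15* and *Tcl1* (36.4%). Only *Tcl1* was lower by at least 2-fold, as were 11.4% of genes. The values did not overlap in 6 of the 7 genes, *Utf1* being the exception, beside 73% of genes tested. Overlap was read from CPM by library totals, in which the KO_PAPC values of *Sox2* and *Nr0b1* lay below those of WT, against the sign of their TMM estimates. The median over the 7 genes was 0.073, beside -0.017 over all genes. Under library totals *Sox2* and *Nr0b1* were called lower, which made 3 higher and 4 lower, and 30.2% in place of 48.4% of all calls were higher. The comparisons share libraries, KO libraries entering 2 of them and KO_PAPC libraries 2, so they are not independent of each other.

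Levels can be set side by side between genes only per length, here that of merged exons, on which the order of genes depends. Of these exonic bases, 14.1% of *Pou5f1* and 9.5% of *Sall4* overlap a gene on the opposite strand. Reads that fell on several genes were not counted, so the levels of both per kb may be understated. The order of *Pou5f1* and *Utf1* is uncertain for this reason as well. In WT EBs the order was *Utf1* with 330 ± 23.7 CPM per kb, *Pou5f1* with 304 ± 6.38, *Sox2* with 250 ± 1.74, *Sall4* with 64.7 ± 1.31, *Nr0b1* with 38.4 ± 0.968, *Fbxo15* with 28.7 ± 0.195 and *Tcl1* with 15.1 ± 0.618 (mean ± SD, n = 3), and *Utf1* and *Pou5f1* did not differ beyond their spread. In KO EBs *Sox2* came first with 368 ± 2.58 CPM per kb, ahead of *Pou5f1* with 309 ± 6.3 and *Utf1* with 272 ± 7.36. *Fbxo15* with 64.1 ± 0.383 and *Nr0b1* with 64.0 ± 1.28 CPM per kb were alike in KO and close to *Sall4* with 67.3 ± 0.581, and *Tcl1* was last with 40.4 ± 1.1. In KO_PAPC EBs *Pou5f1* with 375 ± 10.4 and *Utf1* with 362 ± 25.8 CPM per kb overlapped, *Sox2* had 235 ± 2.48, *Sall4* 82.9 ± 0.936, *Nr0b1* 35.7 ± 1.31, *Fbxo15* 18.8 ± 0.166 and *Tcl1* 4.79 ± 0.253. The sum of the 7 genes spanned 2106 to 2196 CPM over WT libraries, 2535 to 2585 over KO and 2301 to 2406 over KO_PAPC libraries.

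**Figure D3:**
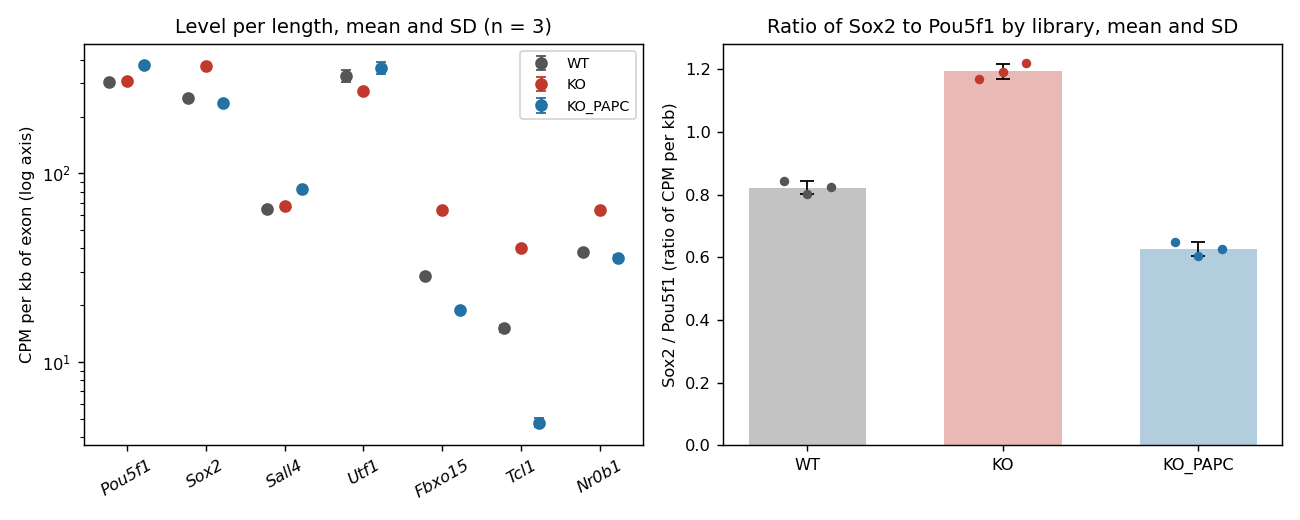
Left, mean level of the 7 genes by group in CPM per kb of merged exons on a log axis, with whiskers for the SD of 3 libraries; right, the ratio of *Sox2* to *Pou5f1* per kb on an axis from 0, with points for libraries, bars for means and whiskers for the SD. *Tcl1* runs from 40.4 in KO to 4.79 in KO_PAPC, and the ratio is higher in the 3 KO libraries than in any other.

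To describe how alike the genes were over the 9 libraries, log2(CPM + 1) values were centred on each gene's mean and the root mean square (RMS) difference was taken for each pair. *Pou5f1* and *Sall4* were the closest pair with 0.0364, and *Sox2* and *Nr0b1* came next with 0.0937. *Utf1* was 0.13 from *Pou5f1*, *Fbxo15* was 0.376 from *Nr0b1*, and *Pou5f1* and *Sox2* were 0.381 apart although their proteins bind as partners. *Utf1* and *Tcl1* were farthest apart with 1.37. All pairs share the same 9 libraries and totals.

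Among the 9790 genes that averaged 10 CPM or more over the libraries, the profile nearest to *Pou5f1* was that of *Plk1*, a mitotic kinase, with an RMS difference of 0.019, followed by *U2af2*. *Sox2* was nearest to *Huwe1*, a ubiquitin ligase (RMS difference 0.0239, with 583, 836 and 530 CPM in WT, KO and KO_PAPC), then *Setd2* and *Cox7b*. *Sall4* was nearest to *Lsm3* (0.0248), then *Cct2* and *Heatr1*, and *Utf1* to *Gtpbp6* (0.0201), then *Rai1* and *Rnf126*. *Fbxo15* was nearest to *Pik3cb*, a subunit of the kinase PI3K, with 57.8, 127 and 37.2 CPM (RMS difference 0.0309), then *Usp9x* and *Slc23a2*. *Nr0b1* was nearest to *Ctbp2*, a transcriptional corepressor, with 136, 227 and 130 CPM (0.0372), then *Hipk2* and *Cep164*. *Tcl1* had the most distant neighbours, *Ppp2r2c* with 0.068, *AU018091* with 0.0724, and the naive factor *Tfcp2l1* with 103, 242 and 34.2 CPM and a difference of 0.0938.

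Relatives by sequence family were taken for the POU, SoxB, Sall, Tcl1 and orphan receptor genes. Of 22 relatives 13 were tested, and 5, namely *Pou5f2* and 4 of the *Tcl1b* genes, had at most 3 counts in every library. In KO against WT, 7 relatives were called higher and 5 lower, with a median log2 fold change of 0.20. In KO_PAPC against KO, 7 were higher and 5 lower (0.29), and in KO_PAPC against WT again 7 and 5 (0.29). Under library totals the KO_PAPC counts became 7 and 6 (median 0.13), and 6 and 5 (0.12).

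The SoxB relative *Sox1*, a neural progenitor factor, ran against *Sox2*. It was lower in KO than in WT, with 18.5 against 71.7 CPM (log2 fold change -1.95 ± 0.0465, edgeR adjusted p = 7.23e-28), and at 119.6 CPM higher in KO_PAPC than in KO by 2.86 (edgeR adjusted p = 1.19e-36). *Sox3*, another SoxB1 gene, had 10.4, 12.8 and 18.5 CPM in WT, KO and KO_PAPC, and was called higher in each comparison. *Sox15*, the SoxG gene of ESCs, went the way of *Tcl1*, with 8.92, 42.7 and 4.35 CPM in WT, KO and KO_PAPC. *Sox21*, a SoxB2 repressor, did likewise with 19.3, 43.2 and 4.79 CPM, and 17.7% of its 51-base words also occur in *Gm4675*.

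Relatives of *Sall4* differed among themselves. *Sall2* was lower in KO than in WT, with 37.4 against 149.8 CPM (log2 fold change -2.00 ± 0.0335, edgeR adjusted p = 3.75e-32), and reached 221 CPM in KO_PAPC. *Sall1* had 215, 247 and 320.1 CPM in WT, KO and KO_PAPC and was called higher in each comparison. *Sall3* was higher in KO than in WT by 0.63 (log2, edgeR adjusted p = 1.09e-12) and lower in KO_PAPC than in KO, with -0.34 (edgeR adjusted p = 3.25e-07).

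Among POU relatives of *Pou5f1*, *Pou3f1*, a factor of the primed epiblast and of neural precursors, had 23.7, 18.3 and 76.0 CPM in WT, KO and KO_PAPC. It was called in each comparison, with log2 fold changes of -0.38, 2.22 and 1.84. *Pou2f1*, the ubiquitous OCT1, had 76.0, 74.4 and 81.2 CPM and was not called between KO and WT (log2 fold change -0.031, edgeR adjusted p = 0.424). *Nr5a2*, the receptor that the product of *Nr0b1* binds, also peaked in KO, with 45.2, 74.8 and 28.3 CPM.

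Protein partners of the 7 genes' products (subunits of NuRD and BAF chromatin complexes, the cullin ligase that holds FBXO15, AKT kinases) were listed as 25 genes, and all were tested. In KO against WT, 9 were called higher and 13 lower (median log2 fold change -0.086). In KO_PAPC against KO, 17 were higher and 6 lower (0.41), or 14 and 10 under library totals (0.24), and in KO_PAPC against WT 22 and 2 (0.35), or 15 and 4 (0.18). *Rif1*, a telomere and replication factor bound by OCT4, had 309, 569.9 and 292.5 CPM in WT, KO and KO_PAPC, a KO peak like that of *Sox2*. *Skp1a*, the adaptor between F-box proteins and the cullin, had 407, 602 and 463 CPM, and *Mta1* of the NuRD complex had 198, 124 and 244 CPM.

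The wider set of 25 general pluripotency genes was split in direction as well. In KO against WT, 11 were called higher and 14 lower (median log2 fold change -0.088), with *Tdh*, the threonine dehydrogenase of mouse ESCs, at 184 CPM in WT and 418 in KO, and *Dppa5a* at 645 and 1132. *Lefty1*, a Nodal inhibitor, fell from 279 to 95.1 CPM (edgeR adjusted p = 8.83e-31), and *Lin28a*, an RNA-binding protein that blocks let-7 maturation, fell from 330 to 164 CPM (edgeR adjusted p = 1.28e-27). In KO_PAPC against KO, 14 were higher and 10 lower (0.28), or 13 and 12 under library totals (0.11), and in KO_PAPC against WT 18 and 5 (0.32), or 14 and 8 (0.15). *Lin28a* reached 565 CPM and *Lefty1* 339 CPM in KO_PAPC, while *Tdh* had 176 and *Dppa5a* 668 CPM.

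Like *Tcl1* and *Fbxo15*, most naive factors were highest in KO EBs. Of 10, 9 were called higher and 1 lower in KO against WT (median log2 fold change 1.01), and all 10 were lower in KO_PAPC than in KO (-1.56). In KO_PAPC against WT 1 was higher and 9 lower (-0.72), or 0 and 9 under library totals. *Nanog* had 385, 778 and 287 CPM in WT, KO and KO_PAPC, *Zfp42* 252, 508 and 125 CPM, and *Klf2* 221, 629 and 231 CPM.

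Genes of the formative and primed epiblast ran the other way. Of 12, 3 were called higher and 9 lower in KO against WT (median -0.41), 10 higher and 2 lower in KO_PAPC against KO (1.55), and 11 and 1 in KO_PAPC against WT (0.94), or 10 and 1 under library totals. The de novo DNA methyltransferase *Dnmt3a* had 334, 209.5 and 579.6 CPM in WT, KO and KO_PAPC, and *Foxd3* had 26.7, 9.01 and 43.2 CPM. *Sox4* had 101, 42.8 and 137 CPM, whereas *Etv4*, an ERK-responsive factor, peaked in KO with 39.1, 73.1 and 31.7 CPM. *Gm26735* overlaps 54.6% of the exonic bases of *Sox4* on the opposite strand, so its counts are uncertain.

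**Figure D4:**
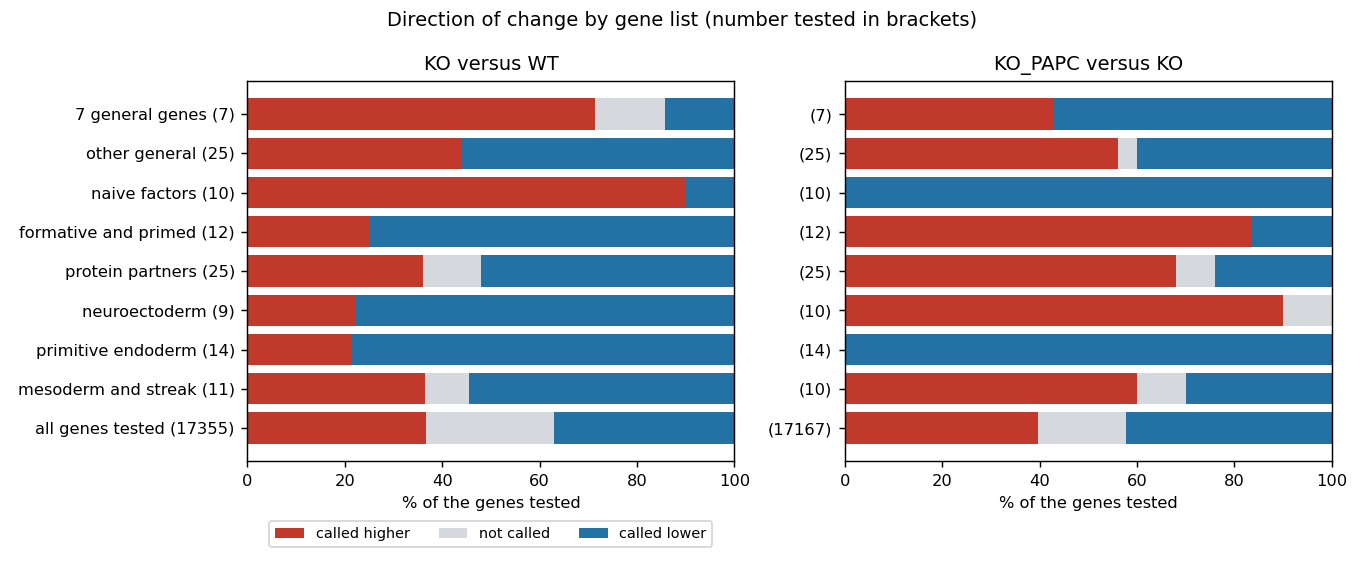
Share of the tested genes of each list, in % from 0 to 100, that edgeR called higher (red), did not call (grey) or called lower (blue) in KO against WT and KO_PAPC against KO, with the number tested in brackets and all genes tested in the bottom bar. In KO_PAPC against KO the 7 genes divide into 3 higher and 4 lower, while all 10 naive factors are lower and 10 of the 12 formative and primed genes are higher.

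Markers of other cell types that EBs can hold also moved with the groups. For neuroectoderm, where *Sox2* is also expressed, the summed level of 12 markers was 225 to 232 CPM in WT, 138 to 145 in KO and 330.2 to 333 in KO_PAPC libraries. Of 9 tested in KO against WT, 2 were higher and 7 lower (median log2 fold change -1.65), and 9 of 10 were higher in KO_PAPC than in KO (2.22, with 9 higher and 1 lower under library totals) and 10 of 10 than in WT (0.81). *Pax6* had 23.8, 5.49 and 36.9 CPM in WT, KO and KO_PAPC, *Nes* 30.3, 15.1 and 47.9 CPM and *Zfp521* 14.01, 5.09 and 19.1 CPM. The summed level was thus lowest in the libraries where *Sox2* was highest, although not that of every marker, since *Tubb3* had 69.3, 82.0 and 76.65 CPM (named after its values were seen). The part of these cells in the *Sox2* values was not tested.

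For primitive endoderm, a lineage that expresses *Sall4*, the 14 markers summed to 945 to 1012 CPM in WT, 520 to 528 in KO and 87.6 to 88.6 in KO_PAPC libraries. In KO against WT 3 were higher and 11 lower (median -0.80), and all 14 were lower in KO_PAPC than in KO (-2.62) and than in WT (-3.41). *Col4a1*, the most abundant of them in each group, had 500, 221 and 44.0 CPM in WT, KO and KO_PAPC. *Lama1* had 168, 100.3 and 13.5 CPM, *Gata6* 29.96, 12.2 and 2.00 CPM and *Pdgfra* 35.4, 13.3 and 2.34 CPM. Higher in KO than in WT were *Afp* with 4.752, 11.01 and 1.144 CPM, *Ttr* with 9.243, 13.11 and 2.107 CPM and *Hnf4a* with 8.45, 10.12 and 0.7342 CPM. *Afp*, *Ttr* and *Hnf4a* were named after their values were seen. *Sall4* was highest in the libraries where these markers were lowest.

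The 12 mesoderm and streak markers summed to 52.7 to 57.3 CPM in WT, 42.4 to 42.9 in KO and 71.4 to 74.4 in KO_PAPC libraries. In KO against WT 4 were higher and 6 lower of 11 tested (median -0.62), in KO_PAPC against KO 6 and 3 of 10 (0.77), and in KO_PAPC against WT 5 and 3 (0.45), or 5 and 4 under library totals (0.29). *Fgf8* had 5.51, 1.04 and 14.2 CPM, *T* had 1.91, 0.292 and 15.5 CPM and *Eomes* had 34.7, 22.6 and 29.1 CPM in WT, KO and KO_PAPC. Other markers of the list were highest in KO, such as *Hand1* with 0.777, 4.53 and 0.217 CPM, *Kdr* with 1.94, 6.42 and 0.519 CPM and *Mesp2* with 2.29, 3.46 and 1.19 CPM, which were named after their values were seen.

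The 10 trophoblast markers summed to 102 to 103 CPM in WT, 345 to 353 in KO and 55.8 to 56.5 in KO_PAPC libraries, and its most abundant gene was *Tfap2c*, which germ cells also express, with 54.0, 294 and 27.4 CPM. In KO against WT 4 were higher and 2 lower of 9 tested (median 0.16), in KO_PAPC against KO 1 and 7 (-2.65), and in KO_PAPC against WT 2 and 7 (-0.81), or 1 and 7 under library totals. *Krt18* had 35.5, 31.7 and 21.4 CPM.

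Germ cells express *Pou5f1* and *Sall4*, and the 10 germ cell markers summed to 265 to 277 CPM in WT, 272 to 286 in KO and 94.1 to 101.6 in KO_PAPC libraries. Of these 5 were higher and 4 lower in KO against WT (median 0.047), 2 and 7 in KO_PAPC against KO (-1.44, or 1 and 8 under library totals), and 0 and 7 in KO_PAPC against WT (-0.52, or 0 and 9). *Prdm1* had 16.7, 28.96 and 5.21 CPM, *Nanos3* 2.33, 12.3 and 2.30, *Mael* 18.4, 30.1 and 13.3, and *Ddx4* 35.5, 16.2 and 29.02 CPM in WT, KO and KO_PAPC. The most abundant markers in WT and KO were *Dazl* with 76.1, 68.7 and 5.94 CPM and *Stra8* with 73.0, 79.8 and 6.18 CPM. Both were named after their values were seen.

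The 10 genes of the 2-cell-like state, a rare ESC state in which OCT4 protein is known to be low, summed to 8.91 to 9.24 CPM in WT, 159 to 165 in KO and 0.287 to 0.684 in KO_PAPC libraries. All 10 were higher in KO than in WT (median 4.13) and lower in KO_PAPC than in KO (-7.99), and the 7 tested in KO_PAPC against WT were lower (-3.94). *Zscan4a* had 1.51, 38.9 and 0.084 CPM and *Zscan4d* 2.11, 38.7 and 0.133 CPM, *Gm8300* had 1.85, 30.9 and 0.109 CPM and *Zscan4c* 1.21, 18.5 and 0.0604 CPM, and their counts are uncertain, since 63% of the 51-base words of *Zscan4a*, 85.3% of *Zscan4c*, 49.1% of *Zscan4d* and 26% of *Gm8300* also occur in other genes. No marker of these cell type lists was at or under 3 counts in every library, and the part of other cell types in the values of the 7 genes was not tested.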

How the data were processed

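RNA was sequenced from 3 libraries each of WT, KO and KO_PAPC EBs, grouped by their titles. The deposited values were whole read counts per Ensembl gene, which the authors did not normalize. The submitters' processing notes name bcl2fastq 2.20.0.422, STAR 2.7.2b, featureCounts 1.6.5 and GRCm38 for every library, although the study's methods describe an earlier aligner for WT against KO. Reads that mapped to several places or genes were not counted, and strand was not recorded. The number of unused columns was 0.

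Each contrast was fitted on its own 6 libraries with edgeR 4.0.16 (R 4.3.3; TMM, filterByExpr, quasi-likelihood test, Benjamini-Hochberg adjustment over all genes tested, two-sided), without covariates. CPM used library totals, and kb are merged exons of GENCODE M21, where 241 IDs had no symbol. Replicate pairs differed by more than counting noise (chi-square per degree of freedom 1.22 to 3.45). The p-values measure the spread between EB samples of 1 KO clone and of the parental E-14 line, not that between clones. The biological coefficient of variation was 2.09 to 2.65%. On simulated data for KO against WT (55471 genes, 200 changed), edgeR recovered 200 with 11 false calls and DESeq2 1.42.0 recovered 200 with 2. The changed genes were well counted, and their changes were larger than the 0.058 of *Sall4* or the 0.073 of *Sox2* (log2). Recovery of such small changes was not tested, nor was recovery with as many changed genes as the 12813 called between KO and WT.

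The members and all gene lists (sequence family, protein partners, other general pluripotency, naive, formative and primed, neuroectoderm, primitive endoderm, mesoderm and streak, trophoblast, germ cell, 2-cell-like) were chosen with earlier results of these data known, are no independent evidence, and share a few genes. Named were the 7 genes, the measured relatives, the 4 genes per list (3 partners) with the smallest adjusted p in KO against WT among those reaching 10 CPM in 1 group, and the 3 nearest profiles per gene, of which 1 is not reported here. Alternatives were DESeq2, RLE size factors, library totals, no filter, a mean count of at least 10, a joint fit, a replicate block, a tested minimum fold of 2 and leaving out each replicate.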

Additional observations from a re-analysis of the deposited data

How the results depend on the processing

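Of 294 alternative log2 fold changes of the 7 genes, 271 kept direction and call, 21 kept direction but lost the call and 2 reversed. The 2 reversals were those of library totals in KO_PAPC against WT, -0.092 for *Sox2* and -0.11 for *Nr0b1*, where that scaling moves the median of all genes by -0.17 (log2). When a fold of at least 2 was tested, 2, 2 and 1 of the 7 genes were called in KO against WT, KO_PAPC against KO and KO_PAPC against WT, beside 1587, 3554 and 1335 of all genes, because that test asks for a larger change, and no other alternative moved these counts by over 1.5 times. No longer called were *Sox2* (0.56), *Sall4* (0.058), *Utf1* (-0.27) and *Nr0b1* (0.74) in the first, *Pou5f1* (0.44), *Sox2* (-0.48), *Sall4* (0.47), *Utf1* (0.58) and *Nr0b1* (-0.68) in the second, and *Pou5f1* (0.47), *Sox2* (0.073), *Sall4* (0.52), *Utf1* (0.30) and *Fbxo15* (-0.44) in the third. The KO difference of *Sall4* was not called in DESeq2 (0.055, adjusted p = 0.0575) or without the filter (0.043, edgeR adjusted p = 0.139), and the cause was not tested. Leaving out each replicate gave 0.037 to 0.069 for it, with the call lost without WT replicate 3 or KO replicate 2, and 0.067 to 0.083 for *Sox2* in KO_PAPC against WT, with the call lost without WT replicate 2 or KO_PAPC replicate 3. Replicate numbers did not pair the KO libraries with either other group. Correlations of same-numbered deviations were -0.0452 to 0.00511, and 0 of 6 libraries were nearest to their own number in each comparison. Between KO_PAPC and WT the correlations were 0.00483 to 0.079, with 4 of 6 nearest, so a weak pairing there was not settled. The replicate block took *Utf1* in that comparison from 9.19e-07 to 2.99e-19 (edgeR adjusted p). With the replicate block, 12587, 13822 and 12223 genes were called in place of 12813, 14047 and 11760, and *Sall4* in KO against WT had 0.058 (edgeR adjusted p = 0.0501), with no other call among the 7 genes changed. Of the 7 genes *Tcl1*, the lowest in counts, had the largest SE in each comparison (0.0406, 0.0526 and 0.0639).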
